A study of Mus musculus with 2 samples.

Results

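Bcl11b and the long stretch of chromosome 12 between it and the Vrk1 gene were examined for open chromatin in mouse thymus. The locus was taken from the Vrk1 gene to the Setd3 gene (chr12:106010228-108179314, mm10), 2169 kb in all, with Bcl11b on the minus strand at chr12:107910403-108003602. A peak, a footprint or an accessible region was counted in the locus when its midpoint lay there. By this rule 119 of 59484 peaks of mouse 1 and 222 of 72913 peaks of mouse 2 were members. The gap between Vrk1 and Bcl11b lies on the 3′ side of Bcl11b, so positions are given as distance downstream of the Bcl11b start site.

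Bcl11b encodes a zinc finger transcription factor that T-cell precursors switch on when they commit to the T lineage, and that then acts, largely as a repressor with chromatin-remodelling partners, to hold down the genes of other lymphoid and innate programmes. The gene is also used in neurons and keratinocytes. Its 3′ neighbourhood is a gene desert, and in mouse T-cell precursors a far enhancer has been described in it, 800 to 900 kb downstream of the start site. The coordinates of that enhancer were not used here, and no peak below is named as it.

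The samples were thymus tissue of 2 female B6CASTF1/J mice aged 36 days, F1 animals of a cross between C57BL/6J, a common laboratory strain, and CAST/EiJ, a wild-derived one, with 1 DNase-seq library from each animal. DNase-seq counts the cuts that the nuclease DNase I makes in nuclei, which fall mostly where DNA is free of nucleosomes. T cells mature in the thymus. Both libraries belong to 1 group, so there was no treatment, genotype or tissue to compare and no test was possible: every statement below is a description, with both libraries given. The parental alleles were not told apart, and all sequence is that of the reference.

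The signal of a peak is a value in the deposited lists whose scale is not named. It was taken as a depth-normalised height. All signals were whole multiples of 1 step per library (0.00638 in mouse 1 and 0.00504 in mouse 2), and if a step is 1 read on a scale of reads per 1000000 the libraries held 157 and 198 M reads (M, 1000000). Peaks over the genome had a median signal of 1.23 in mouse 1 and 1.45 in mouse 2. Promoters of all 11 thymocyte marker genes examined, among them Cd3e, Cd8a, Rag1 and Lck, had a peak in both mice, beside 56.6% of all 21755 protein-coding genes. Markers of other cell types were mostly without one: a peak in both mice was found at 1 of 4 B-cell genes (Pax5), 0 of 4 myeloid, 1 of 4 thymic epithelial (Epcam), 1 of 3 keratinocyte (Krt10), 1 of 2 endothelial (Pecam1) and 2 of 3 neuronal genes. In whole tissue, a site open in fewer cells and a site less open in each cell cannot be told apart.

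Counting by midpoint left out the promoters of Vrk1 (9.29 in mouse 1 and 16.0 in mouse 2) and Setd3 (18.5 and 36.9) at the edges of the locus. Among the rest, 6 sites were strongest by mean signal. They were the Bcl11b promoter, the start of the long non-coding RNA gene Gm16084 in the middle of the desert, and 4 distal elements. Their reference sequences (RefSeq, GRCm38) are shown because these are the 6 pairs of highest mean signal and because 4 of them lie in the desert. Capitals mark bases that lay in a footprint, a short stretch protected from DNase I within an open site, in both mice. The Bcl11b promoter is given on the minus strand from chr12:108004146-108004280, the part of its peak upstream of every annotated start. The others are given on the plus strand, at chr12:107160161-107160360 for the Gm16084 start, chr12:107086341-107086540 for distal 1, chr12:106311121-106311280 for distal 2, chr12:107928101-107928320 for distal 3 and chr12:107124301-107124500 for distal 4.
Bcl11b promoter: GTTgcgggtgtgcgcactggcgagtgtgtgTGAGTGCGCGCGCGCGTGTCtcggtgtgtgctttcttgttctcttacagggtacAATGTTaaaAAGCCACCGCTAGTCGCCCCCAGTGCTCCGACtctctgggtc
Gm16084 start: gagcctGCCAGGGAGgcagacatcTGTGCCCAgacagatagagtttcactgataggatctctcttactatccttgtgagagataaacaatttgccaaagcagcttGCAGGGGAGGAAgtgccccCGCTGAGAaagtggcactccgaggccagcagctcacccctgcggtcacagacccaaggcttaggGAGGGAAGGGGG
distal 1: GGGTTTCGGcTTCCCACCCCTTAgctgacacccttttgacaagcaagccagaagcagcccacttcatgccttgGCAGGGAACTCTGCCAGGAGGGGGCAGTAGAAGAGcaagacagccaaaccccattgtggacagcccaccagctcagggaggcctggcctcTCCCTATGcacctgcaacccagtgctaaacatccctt
distal 2: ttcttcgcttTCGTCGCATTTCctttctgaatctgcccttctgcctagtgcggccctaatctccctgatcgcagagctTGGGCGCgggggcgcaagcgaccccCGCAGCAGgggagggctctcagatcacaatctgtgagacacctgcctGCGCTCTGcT
distal 3: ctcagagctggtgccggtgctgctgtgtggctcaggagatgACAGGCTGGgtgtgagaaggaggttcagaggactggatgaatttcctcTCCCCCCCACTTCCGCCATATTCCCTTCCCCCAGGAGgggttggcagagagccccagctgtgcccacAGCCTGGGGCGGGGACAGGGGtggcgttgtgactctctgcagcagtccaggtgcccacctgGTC
distal 4: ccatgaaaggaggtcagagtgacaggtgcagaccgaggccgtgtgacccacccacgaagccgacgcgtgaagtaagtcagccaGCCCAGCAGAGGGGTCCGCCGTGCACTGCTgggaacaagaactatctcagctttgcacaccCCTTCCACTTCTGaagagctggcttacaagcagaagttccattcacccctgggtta

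By mean signal, the Gm16084 start was the strongest pair of the locus. It lay 843 kb downstream of the Bcl11b start and reached a signal of 13.7 in mouse 1 and of 16.1 in mouse 2 (14.9 ± 1.66, SD, n = 2), with 6 and 7 footprints. These signals were at the 97.7th and 93.5th percentile of all peaks of the respective library, so a site in the desert ranked above the promoter of Bcl11b in both animals. In mouse 2 distal 1 was slightly higher still. In its sequence above, the ETS letters GGAAGT overlapped a shared footprint by 4 bases, an E-box CAGATG on the other strand by 2 bases, and a GATA match, GATAA, lay outside every footprint.

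Distal 1, in an intron of the non-coding gene Gm16086 at 917 kb, followed with 8.30 in mouse 1 and 16.3 in mouse 2 (12.3 ± 5.67, SD, n = 2). The spread between the animals was larger here than at the other printed elements. Its largest footprint block, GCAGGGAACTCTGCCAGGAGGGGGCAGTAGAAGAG, held a match to the CTCF letters (CCAGGAGGGGGC) with all 12 bases protected in both mice, and a second block held GTGGGAA, the letters of the Notch effector RBPJ, on the minus strand. CTCF is the factor that anchors chromatin loops. The match reads on the plus strand, and Bcl11b is transcribed on the minus strand.

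Distal 2 was an intergenic site 1692 kb downstream of Bcl11b, with 10.4 in mouse 1 and 13.8 in mouse 2 (12.1 ± 2.39). Distal 3 lay inside Bcl11b itself, in intron 3 at 75.4 kb, with 9.61 and 13.9 (11.8 ± 3.03). Distal 4, intergenic at 879 kb, had 9.44 and 12.3 (10.9 ± 2.06). All 3 were higher in mouse 2, as were 81.5% of all pairs of the genome. They differed little from each other against the spread between the mice. In distal 3 the ETS letters, here on the minus strand, and the KLF/SP letters GGGCGG lay wholly in shared footprints, while its E-box matches did not. The E-box of distal 2 and that of distal 4 lay outside the footprints of both mice.

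**Figure D1:**
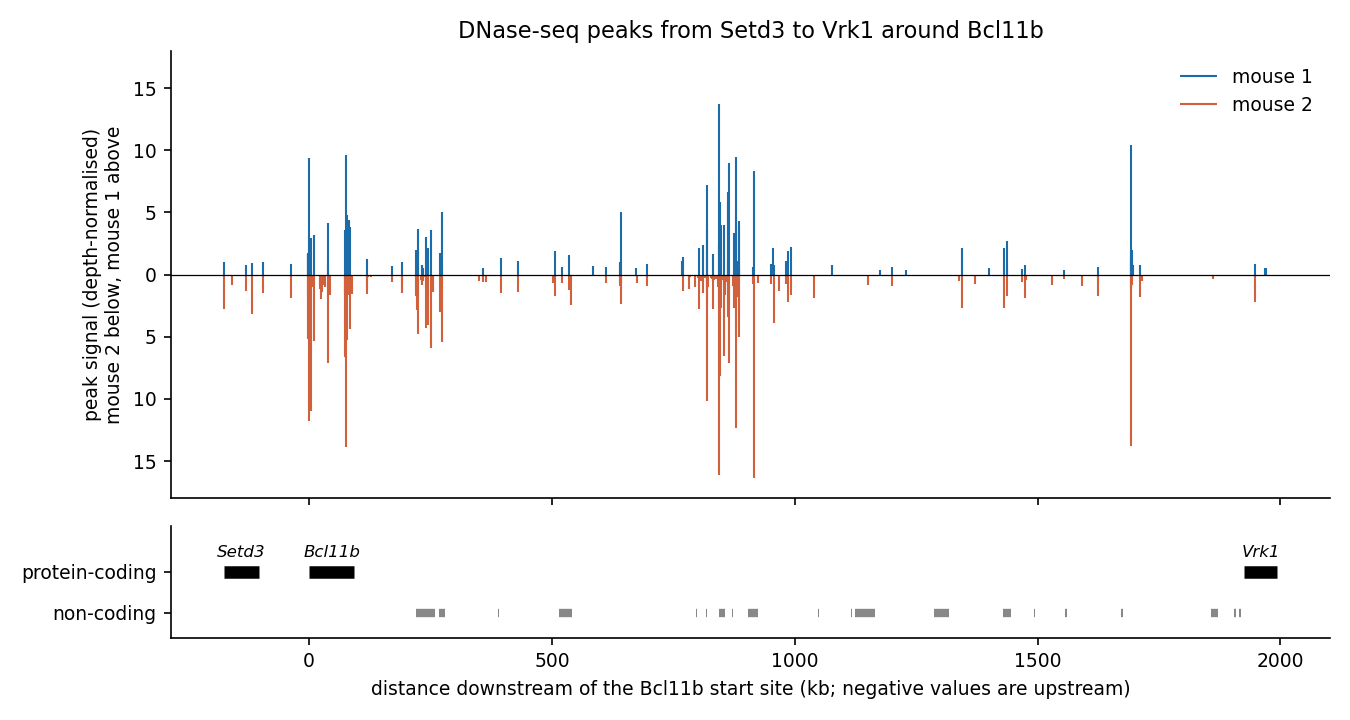
Signal of every peak from Setd3 to Vrk1, taken as depth-normalised, against distance downstream of the Bcl11b start in kb. Mouse 1 is drawn upward and mouse 2 downward, with protein-coding genes as black and non-coding genes as grey bars. The gene 3110018I06Rik is too short to be seen. The same tall sites stand in both mice, at Bcl11b, around 843 to 917 kb and at 1692 kb, where the signals were 10.4 and 13.8.

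The Bcl11b promoter itself was open in both mice but was not exceptional among promoters. Promoter peaks are those that reach within 1000 bp of an annotated start. The strongest one at Bcl11b, chr12:108004101-108004280, lay 499 bp upstream of the GENCODE start; the start in the RefSeq annotation is 543 bp upstream of that and falls inside the peak. It reached 9.41 in mouse 1 and 11.8 in mouse 2 (10.6 ± 1.68, SD, n = 2), with 7 and 6 footprints. Among the 12386 and 13742 protein-coding genes with a promoter peak (56.9% and 63.2% of all) it stood at the 76.1st percentile in mouse 1 and the 54.2nd in mouse 2, where the median promoter had 4.94 and 10.4. The median promoter was thus higher in mouse 2 by more than the Bcl11b promoter was. None of the 9 motifs searched matched in the part of the promoter printed above.

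Within the gene body, 11 peaks were called in mouse 1 and 35 in mouse 2 (23 ± 17.0, SD, n = 2), or 1.18 and 3.76 per 10 kb of gene. These densities were at the 77.3rd and 91.2nd percentile of the 21755 protein-coding genes, with or without a promoter peak. Among 11929 genes with a promoter peak in both mice they were at the 62.1st and 86.4th percentile. Some of the 35 overlap another peak of mouse 2, so the separate sites were fewer than 35. None of the 11 overlap another peak of mouse 1. All 11 peaks of mouse 1 had a partner in mouse 2: 4 lay in intron 1 and 7 in intron 3. Among these pairs, the strongest by mean after distal 3 was distal 7, in intron 1 at 4.68 kb, with 2.92 in mouse 1 and 11.003 in mouse 2, the pair of the locus with the largest ratio in favour of mouse 2 (log2 1.92). Distal 8, in intron 3 at 38.7 kb, had 4.15 and 7.14. Around distal 3 stood a group of further intron 3 sites, at 72.8 kb (3.55 and 6.59), 77.3 kb (4.75 and 5.23), 82.3 kb (4.40 and 1.67) and 84.6 kb (3.80 and 4.39). Of the 11 pairs 10 were higher in mouse 2, near the 81.5% of all 46907 pairs of the genome, and the site at 82.3 kb was the exception, with the largest ratio in favour of mouse 1 in the locus (log2 -1.40).

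The other 23 peaks of mouse 2 in Bcl11b had no partner in mouse 1. Their signals ran from 0.433 to 1.97 with a median of 1.03, against 1.45 over all peaks of mouse 2. Of the 23, 19 held a footprint, against 89.7% of all peaks of mouse 2. Most were not among the weakest peaks: 34 of the 35 in the gene were above the weakest 10% of mouse 2. In the stronger 50% of each library, the gene held 10 peaks in mouse 1 and 19 in mouse 2. Of the 23, 10 lay in intron 1, 7 in intron 2, 4 in intron 3 and 2 in exon 4. Intron 2 therefore held 7 peaks in mouse 2, of which some overlap each other, and 0 in mouse 1. Among the 23, 8 touched an accessible region of mouse 1, a run of bases with an FDR of the local cut rate below 0.05. That compares with 53.2% of all unshared peaks of mouse 2. Another 4 of the 23, not necessarily different ones, overlapped the longer, more permissive peak list of mouse 1. The accessible regions covered 6.50% of the gene in mouse 1 and 20.5% in mouse 2. That ratio of 3.15 compares with a median of 1.12 over 4577 protein-coding genes of at least 50 kb, of which 465 (10.2%) had at least as high a ratio. Bcl11b ranked 185th of these genes in mouse 1 and 15th in mouse 2, so a large covered share was seen in both animals, and its size differed between them.

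Next to the gene, the gap of 103 kb towards Setd3 held 6 peaks in mouse 1 and 7 in mouse 2. The strongest peak of the locus without a partner lay there, 1399 bp upstream of the Bcl11b start, with a signal of 3.67 in mouse 2. It touched an accessible region of mouse 1 and overlapped a peak of the longer list of mouse 1. It also overlapped the mouse 2 peak of a pair 1269 bp upstream of the start, so it was not a separate site. That pair had 1.67 and 3.70, and another 2559 bp upstream of the start had 1.70 and 5.19. Both were higher in mouse 2, as were 81.5% of all pairs of the genome.

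The desert held most of the members. Of the locus peaks, 96 in mouse 1 and 175 in mouse 2 lay in the 1833 kb between Vrk1 and Bcl11b (135.5 ± 55.9, SD, n = 2), which is 5.24 and 9.55 per 100 kb (7.39 ± 3.05). Over the whole genome there were 2.18 and 2.68 peaks per 100 kb. Among the 648 gaps of at least 500 kb between neighbouring protein-coding genes, the median was 0.136 per 100 kb. The Vrk1 to Bcl11b gap ranked 3rd by the mean of both mice, 5th in mouse 1 and 1st in mouse 2. For this the short gene 3110018I06Rik, annotated as protein-coding inside the gap, was not allowed to bound it. With that gene as a bound, the gap from Vrk1 ranked 4th. The order among the leading gaps depended on weak peaks: with the stronger 50% of the peaks of each library the density was 2.59 per 100 kb and the rank 7th.

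The gaps of nearest rank were close in density. The gap between Satb1, a chromatin organiser of thymocytes, and Kcnh8 had 7.99 per 100 kb, and the gap from Olfr1507 to Dad1, which holds the T-cell receptor alpha and delta genes, had 7.56. Next came Foxo1 to Cog6 with 7.32 and Gm11361 to Sox4 with 6.66. None of these differed from the Bcl11b gap by more than the spread of 3.05 between the mice. The deserts beside Gata3 and Myc, which also hold far enhancers used in T cells, had fewer: Gata3 to Celf2 had 21 and 23 peaks in 2348 kb (0.937 ± 0.0602 per 100 kb, rank 105), and Myc to Gsdmc had 36 and 32 in 1786 kb (1.90 ± 0.158, rank 49). In both of these the counts of the mice were close, and both lay below the Bcl11b gap in each mouse.

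Peaks were not spread evenly through the desert. Counted in windows of 100 kb from the Bcl11b start, 3 windows held 59 of 119 peaks in mouse 1 (49.6%) and 148 of 222 in mouse 2 (66.7%), and 65.9% and 66.6% of the summed signal. They were the window of the gene body, 0 to 100 kb, with 11 and 35 peaks, the window at 200 to 300 kb with 18 and 29, and the window at 800 to 900 kb with 30 and 84. Of the 18 full windows of the gap, 8 had a mean of 2 peaks or fewer and 4 had no pair of overlapping peaks. The longest stretch without a peak in either mouse ran for 146 kb, from 1714 to 1860 kb downstream, on the Vrk1 side of distal 2. The second, 109 kb from 1229 to 1338 kb, also held no peak of the longer list and no footprint in either mouse.

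**Figure D2:**
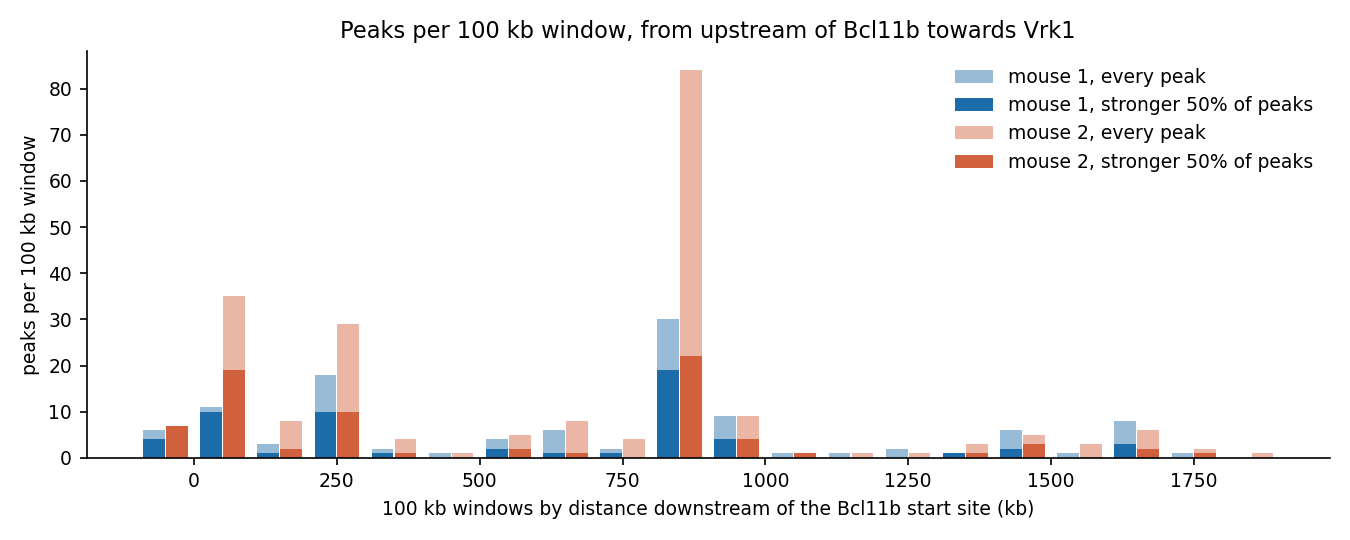
Peaks per 100 kb window (y axis) against distance downstream of the Bcl11b start in kb, mouse 1 in blue and mouse 2 in orange, with the stronger 50% of each library's peaks in the dark part of each bar. The window at 800 to 900 kb holds 30 and 84 peaks, of which 19 and 22 are in the stronger 50%.

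The window at 800 to 900 kb was among the densest of the genome. Its mean of 57 peaks (± 38.2, SD, n = 2) was reached by 3 of 25603 windows of 100 kb (0.0117%) on a fixed grid over the genome, none of them overlapping it, and the median window had 0.5. In mouse 1 alone its count of 30 was reached by 43 windows and in mouse 2 alone its count of 84 by 1. It took up 4.61% of the locus and held 38.6% of the summed peak signal in mouse 1 and 32.2% in mouse 2. Besides the Gm16084 start and distal 4, it held the start of the non-coding gene Gm2800 at 820 kb (7.20 and 10.1), distal 5 at 864 kb (8.93 and 7.10), distal 6 in an intron of Gm16084 at 846 kb (5.82 and 8.15), distal 9 at 855 kb (3.98 and 6.53), and the start of the non-coding gene Gm16085 at 874 kb (3.36 and 2.65). Of these, only the Gm16085 start was under 3 in a mouse, and 26 pairs of the window overlapped between the mice. Restricted to the stronger 50% of peaks, the window held 19 in mouse 1 and 22 in mouse 2, so that the animals were close; 36 windows of the genome (0.141%) had as high a mean.

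Much of the difference in peak number between the mice lay in 1 block of this window. From the first to the last peak of mouse 2 that was among its weakest 10%, a stretch of 48.7 kb at 801 to 850 kb downstream (chr12:107153506-107202220), mouse 1 had 9 peaks, all of them shared, with a lowest signal of 1.64. Mouse 2 had 62, of which 53 were unshared, with a median of 0.252 and a highest value of 1.12. Of the 62, 40 were among the weakest 10%, and the weakest had a signal of 0.0756, or 15 steps. The edges of the block were set by weak peaks of mouse 2, so the contrast between the mice is partly given by that choice. Accessible regions covered 10.4% of the block in mouse 1 and 60.6% in mouse 2. Footprints numbered 52 and 128, of which 35 in each mouse overlapped one of the other. Blocks of this kind were not limited to Bcl11b: windows of 100 kb with at least 10 of the weakest 10% of peaks numbered 17 in mouse 1 and 86 in mouse 2. Without the weakest 10% of peaks the 800 to 900 kb window had 30 and 44.

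**Figure D3:**
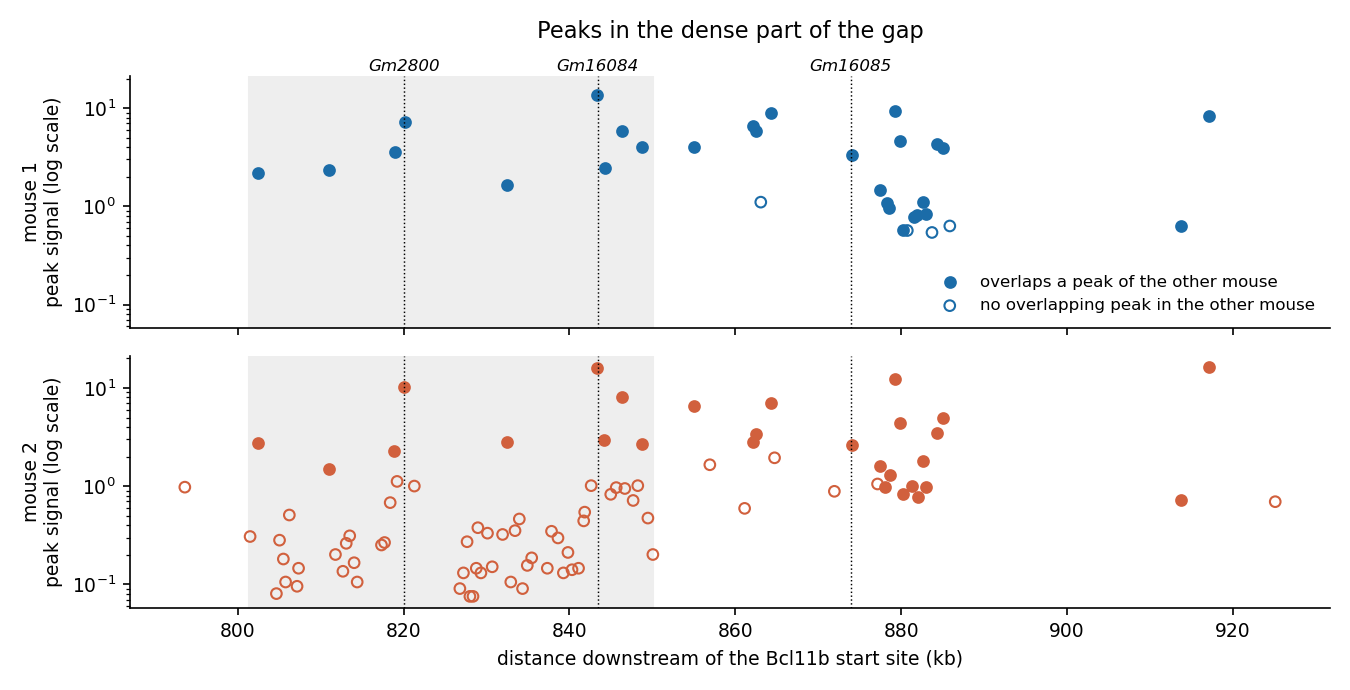
Signal of each peak (log scale) against distance downstream of the Bcl11b start in kb, mouse 1 above and mouse 2 below; filled points overlap a peak of the other mouse, dotted lines are start sites and the grey band is the 48.7 kb block. In the band mouse 1 has 9 peaks at or above 1.64, and mouse 2 has the same 9 sites plus 53 unshared peaks at or below 1.12.

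The window at 200 to 300 kb was the next cluster outside the gene, with 23.5 ± 7.78 peaks (SD, n = 2) and 17 pairs. Here too weak peaks made up most of the difference between the mice: without the weakest 10% the counts were 18 and 19. It spans the non-coding genes 4930465M20Rik and Gm15208. Its strongest site was distal 10, in an exon of 4930465M20Rik at 274 kb, with 5.06 in mouse 1 and 5.40 in mouse 2 (5.23 ± 0.237). The next, at 251 kb in an intron of Gm15208, had 3.62 and 5.89. The mice were nearly equal at distal 10. The first peak of the gap counted from Bcl11b lay 119 kb from its start site (1.26 and 1.58). Towards Vrk1 the last peak lay at 1710 kb in mouse 1 (0.734) and at 1861 kb in mouse 2 (0.333), and both were below the median peak of their library.

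The 10 strongest distal pairs divided into 3 in Bcl11b introns, 5 between 846 and 917 kb, 1 at 274 kb and 1 at 1692 kb. In 9 of the 10 the signal was higher in mouse 2, near the 81.5% of all pairs, and distal 5 was the exception. By annotation, 67 of the 119 peaks of mouse 1 were intergenic, 40 intronic, 10 at promoters and 2 exonic. The corresponding counts in mouse 2 were 122, 78, 14 and 8. Intergenic peaks were thus 56.3% and 54.96% of the locus peaks, against 22.8% and 23.9% of all peaks of the libraries.

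The locus holds 28 annotated genes, of which 16 are long intergenic non-coding RNA genes, 7 pseudogenes and 1 a small nucleolar RNA gene. The 4 protein-coding ones are Vrk1, a nuclear protein kinase, Bcl11b, Setd3, a methyltransferase that acts on actin, and the short gene 3110018I06Rik. Start sites with a peak nearby in each mouse belonged to 8 of the 28. They were Vrk1 (9.29 and 16.0), Bcl11b, Setd3 (18.5 and 36.9), Gm16084, Gm2800, Gm16085, 4930465M20Rik (1.74 and 3.02) and Gm15208 (2.00 and 1.72). The neighbour Setd3 had a promoter stronger than that of Bcl11b in each mouse. No promoter peak was found at 19 genes, 3110018I06Rik among them, and the pseudogene Gm17052 had one in mouse 1 alone (0.664).

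Sites of the locus were shared between the mice in 99 of 119 cases for mouse 1 (83.2%, against 80.8% of all its peaks) and in 99 of 222 for mouse 2 (44.6%, against 66.1%). The mouse 1 share was near the background and the mouse 2 share was below it. Median signals were 1.64 and 1.87 for shared peaks and 0.629 and 0.534 for unshared ones. Of the 20 unshared peaks of mouse 1, 14 (70%, against 67.6% of all its unshared peaks) touched an accessible region of mouse 2. Of the 123 unshared peaks of mouse 2, 44 (35.8%, against 53.2%) touched one of mouse 1. The strongest unshared peaks of mouse 1 lay at 1695 kb (1.96) and 1693 kb (1.91), beside distal 2, and at 431 kb (1.11). Those of mouse 2 lay 1399 bp upstream of the start (overlapping a shared peak of the same mouse), at 539 kb (2.45) and at 25.3 kb in Bcl11b (1.97). All 6 touched an accessible region of the other mouse.

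The 97 pairs of the locus were less biased towards mouse 2 than pairs elsewhere. The median log2 ratio of mouse 2 over mouse 1 was 0.29 in the locus, with 64 of 97 pairs higher in mouse 2 (65.98%), against 0.75 and 81.5% over all 46907 pairs. It was 0.18 for the 77 pairs of the gap and 0.78 for the 11 pairs in Bcl11b. GC content also differed: the median GC of a pair was 53.8% in the locus and 55.7% over all pairs, and pairs of the genome within the middle 50% of locus GC (50.9 to 56.7%) had a median of 0.43. Against the median of all pairs, the ratio was lower in the gap and similar in the gene body. Promoter peaks made up 45.7% and 41.8% of all peaks of mouse 1 and mouse 2, but only 9 of the 97 pairs of the locus. Within the locus, the 9 promoter pairs had a median log2 ratio of 0.32 and the 88 other pairs one of 0.25. No ratio over the distal pairs of the whole genome was computed. The median GC of the pairs in Bcl11b, 58.6%, lay outside the matched range. Whether makeup or GC accounts for the difference was not tested. Each mouse is 1 library, so no site can be called different.

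**Figure D4:**
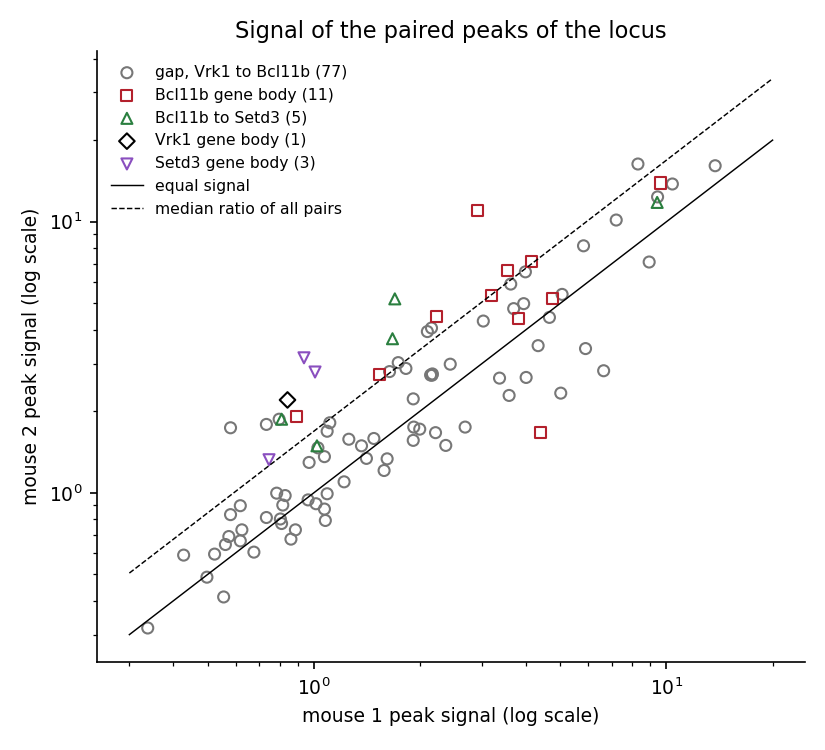
Signal of the 97 pairs of overlapping peaks in mouse 2 against mouse 1 (both log scales), marked by section of the locus; the solid line is equal signal and the dashed line the median ratio of all pairs in the genome (log2 0.75). Gap pairs scatter around equal signal (median log2 0.18) and the pairs in Bcl11b lie nearer the dashed line (0.78).

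Accessible regions covered more of the locus than of the genome in both mice. The locus held 355 accessible regions in mouse 1 and 446 in mouse 2 (400.5 ± 64.3, SD, n = 2), which covered 3.07% and 4.94% of its length, against 1.28% and 1.47% of the genome. A peak lay in 100 of the 355 (28.2%, against 25.6% over all regions) and in 161 of the 446 (36.1%, against 30.6%). Footprints numbered 542 and 785, with 135 and 220 of them in the 800 to 900 kb window and 66 and 187 in Bcl11b. At least 1 footprint lay in 107 of the 119 peaks of mouse 1 (89.9%, against 87% of all its peaks) and in 169 of the 222 of mouse 2 (76.1%, against 89.7%). A footprint of the other mouse overlapped 48.9% of locus footprints in mouse 1 and 33.2% in mouse 2, both below the shares over all footprints, 55.6% and 45.2%.

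Motif letters were searched on both strands in the centre 150 bp of the distal peaks, those outside promoter windows, 109 in mouse 1 and 208 in mouse 2. A match is a run of letters and not a bound site. The CTCF core motif has 12 letters, of which 4 are free, and CCAGGAGGGGGC in distal 1 is a match to it. It was found in 4 distal peaks in mouse 1 (3.67%) and 6 in mouse 2 (2.88%), against 13.2% and 17% of all distal peaks, the widest difference of the 9 motifs in ratio. The letters of the GATA family (GATAA) were in 12.8% and 12.98% of the locus peaks against 11.9% and 9.91%, and those of the E-box, bound by E proteins (CAGNTG), in 54.1% and 55.3% against 52.8% and 51.6%.

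These 2 were the only motifs of the 9 with a higher share in the locus in both mice, and the margins were narrow. RUNX letters (TGTGGT), in 17.4% and 15.4% against 20.4% and 17.5%, and ETS letters (GGAAGT), in 15.6% and 13.5% against 20.8% and 16.6%, were less frequent in the locus. TCF1/LEF1 letters (CTTTGA) were in 11.9% and 9.62% against 13.6% and 10.1%, and KLF/SP letters (GGGCGG) in 6.42% and 9.62% against 9.21% and 11%. The shares for RBPJ, searched as GTGGGAA, were 3.67% and 3.37% against 3.68% and 3.73%. AP-1 letters (TGANTCA) were below the genome in mouse 1 and above it in mouse 2 (3.67% and 5.29% against 5.16% and 4.73%).

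With promoter peaks counted too, the locus and the genome differed in makeup, with 8.40% and 6.31% of peaks at promoters against 45.7% and 41.8%, and 4 of the 9 motifs had a higher share in the locus in both mice. These were E-box (52.9% and 53.6% against 43.9% and 44%), GATA (13.4% and 12.6% against 9.63% and 8.06%), RUNX (16.8% and 14.9% against 15.2% and 13.6%) and TCF1/LEF1 (11.8% and 9.91% against 10.6% and 8.12%). Lower in both mice were ETS (15.1% and 13.5% against 19.1% and 16%), CTCF (3.36% and 2.70% against 8.84% and 11.9%) and KLF/SP (6.72% and 10.4% against 21.7% and 23.7%). RBPJ (4.20% and 3.15% against 3.42% and 3.47%) and AP-1 (3.36% and 4.95% against 3.99% and 3.73%) pointed to opposite sides in the mice. CTCF, ETS and KLF/SP letters were thus rarer in the locus in both mice with and without promoter peaks. When the match had to overlap a footprint of the same library, none of the 4 kept the higher share in both mice. E-box letters then had 16.0% and 10.4% against 14.9% and 15.6%, GATA 4.20% and 1.351% against 1.77% and 1.57%, RUNX 4.20% and 5.86% against 5.13% and 4.73%, and TCF1/LEF1 3.36% and 1.80% against 4.12% and 2.88%. AP-1, with 1.68% and 0.901% against 0.945% and 0.849%, was then the only motif of the 9 above the genome in both mice. These are shares of 119 and 222 peaks, so they rest on very few matches, and in mouse 2 the share was near that of the genome.

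**Figure D5:**
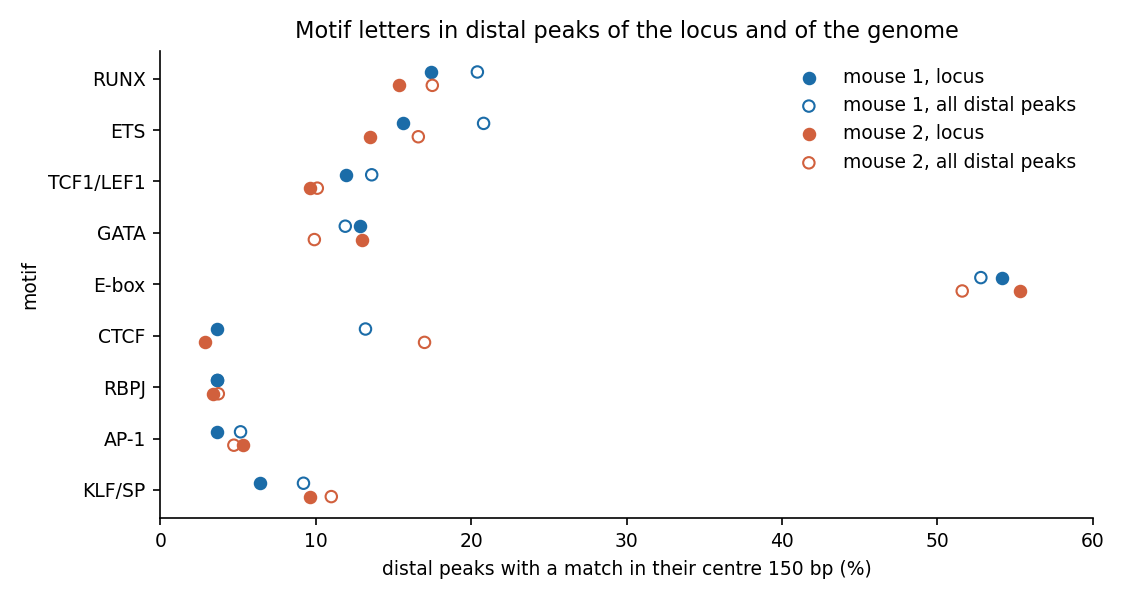
Share of distal peaks with a match in their centre 150 bp (x axis, %) for 9 motifs, filled points for the locus and open points for all distal peaks, mouse 1 in blue and mouse 2 in orange. The CTCF points of the locus, 3.67% and 2.88%, lie left of the open points at 13.2% and 17%.

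Within the joint span of overlapping peaks, CTCF letters occurred 5 times, and each match touched a footprint in each mouse. The match in distal 1 at 917 kb and a second at 846 kb, at the edge of distal 6, lay in the gap and read on the plus strand. At 846 kb the footprints of the mice had no base of the match in common, and the match lay outside the stretch where the 2 peaks overlap. Further plus-strand matches lay in pairs 1269 bp and 38099 bp upstream of the Bcl11b start (1.67 and 3.70, and 0.810 and 1.87), and the only minus-strand match was in Vrk1 (0.842 and 2.20). Thus 2 of the 77 pairs of the gap held the letters, and none of the matches in these pairs was on the minus strand. The strand of matches in peaks without a partner is not given here.

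Genes that act with Bcl11b had open promoters throughout. Its known regulators, which include Tcf7 (TCF-1), Gata3, Runx1 and its partner Cbfb, Notch1 and its effector Rbpj, and the E-protein genes Tcf3 and Tcf12, had a promoter peak in both mice in 12 of 12 cases, against 56.6% of all protein-coding genes. Of these, Gata3 had a promoter signal of 9.41 and 10.5, close to that of Bcl11b, and Tcf7 one of 5.94 and 10.8. The co-repressor partners, mainly subunits of the NuRD remodelling complex such as Chd4 (6.08 and 16.5), Mta2 (11.9 and 31.0), Rbbp4 (13.7 and 34.7) and Hdac1 (13.9 and 34.0), were also open in 12 of 12. Most of these genes are broadly expressed. Of the co-repressor partners, Chd3 (1.28 and 2.28), Mta1 (1.33 and 2.99) and Mta3 (1.63 and 5.52) had weaker peaks. So did Hdac2 (3.66 and 8.77) and Sirt1 (3.50 and 10.37). All of these were below the median promoter in both mice (4.94 and 10.43).

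Genes that Bcl11b is known to hold down in T cells were open at fewer promoters, 7 of 12 in both mice, which is near the 56.6% of all genes. Those with a peak included Id2, an inhibitor of E proteins (11.4 and 21.6), the stem cell factor receptor gene Kit (2.87 and 10.3) and the NK receptor gene Klrd1 (0.696 and 0.343). No promoter peak was found in either mouse at the NK receptor genes Klrb1c and Ncr1, at the gamma-delta T-cell gene Cd163l1 or at Fcer1g, which encodes a signalling chain of innate cells. Zbtb16, the gene of the innate-like lineage factor PLZF, had a weak one in mouse 2 alone (0.851). The paralog Bcl11a, a factor of B cells and progenitors, had weak promoter peaks of 0.702 and 1.86, far below those of Bcl11b in each mouse.

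By promoter signal and density of gene-body peaks, each as a percentile rank in both mice over 11929 genes with a promoter peak, the genes nearest to Bcl11b were Plekhh3 (distance 9.60), Rfx5 (9.67) and Zfp473 (10.1). Their promoters had 8.72 and 12.5, 10.2 and 10.03, and 10.9 and 12.6 in mouse 1 and mouse 2. All 3 are short genes with 1 or 2 body peaks in mouse 1, so the likeness is one of density and not of peak number.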

How the data were processed

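DNase-seq libraries of 2 mice, biological replicates 1 and 2 per the labels, were used and never pooled. The authors deposited the signal column of each peak without naming its scale, and it was taken as a depth-normalised height. Of its values, 100% were whole steps within a tolerance of 0.1 steps. For cut rates the authors deposited an FDR, listed below 0.05. The value deposited with footprints is constant, and their positions alone were taken. Per the labels the build is mm10. Aligner and callers: not given in the sources used here. Each library has its own peak lists.

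The shorter of 2 peak lists was used, with the longer one as an alternative. Touching cut-rate runs were merged into accessible regions. Peaks overlapping by at least 1 bp were shared, and pairs are those that overlap each other most. Because membership is by midpoint, the strongest promoter peaks of Vrk1 and Setd3 fall just outside the counts. Of the locus peaks, 4 in mouse 1 and 12 in mouse 2 overlap another peak of the same list. Genes came from GENCODE M21. The gene 3110018I06Rik was not allowed to bound a gap; with it, the gap from Vrk1 had 7.16 peaks per 100 kb (rank 4). Python 3.11.15, pandas 2.3.3 and bedtools 2.31.1 were used. On 59484 simulated intervals with 69.9% planted overlap, 70.9% was recovered, as by bedtools; shifted intervals also meet neighbours.

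Named peaks were the strongest promoter pair, the 10 strongest distal pairs, the strongest unshared peaks (3 per mouse), the first and last peaks of the gap and the 3 fullest windows; others were named after their values were seen. 1 marker list that was examined is not reported here. The members, lists and motifs were chosen with earlier results of these data known. The block of weak peaks and the distal motif shares were chosen after seeing the data. Counting error limits the weakest peaks, and with 2 libraries the SD is itself poorly known.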

Additional observations from a re-analysis of the deposited data

How the results depend on the processing

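With the stronger 50% of peaks, the locus held 69 peaks (mean of both mice), the gap 2.59 per 100 kb and the 800 to 900 kb window 20.5; without the weakest 10%, chosen after seeing the data, that window held 37. At an FDR below 0.001 there were 249 accessible regions. Requiring 50% overlap of both, 27.6% of footprints were shared. Motifs above the share of all peaks in both mice numbered 4, against 1 when overlapping a footprint and 2 among distal peaks alone, the latter chosen after seeing the data. Leaving out each replicate gave 119 to 222 peaks, 5.24 to 9.55 per 100 kb, 44.6 to 83.2% shared peaks, a promoter signal of 9.41 to 11.8, a strongest distal signal of 8.30 to 16.3, 355 to 446 accessible regions, 542 to 785 footprints, 33.2 to 48.9% shared footprints and 30 to 84 peaks in the window. The ratio between the mice cannot be given without a replicate. The longer list gave 249 locus peaks and 10.9 per 100 kb. The causes were not tested. No paired analysis was possible because both libraries belong to 1 group.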
